A study of Homo sapiens with 12 samples.

Results

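The data describe what TNFα changed in HepG2 cells whose macroH2A histones had been knocked down, taken from 6 of the 12 RNA sequencing libraries of the study: knock-down cells untreated (libraries 1 to 3) and knock-down cells with TNFα (libraries 1 to 3). HepG2 is an established human hepatoma cell line. Members were chosen by the sample labels alone, and every gene of the table was kept in view, with 16118 of 35984 genes passing the filter on low counts and entering the test. Both groups carry short hairpin RNAs against MACROH2A1 and MACROH2A2 transcripts, integrated by retroviral transduction. They differ in the last step: following overnight culture in low serum, one group received TNFα at 20 ng/mL for 24 hours and the other the vehicle, PBS with albumin. The other 6 libraries are HepG2 cells with control hairpins under the same 2 treatments, and they serve here as the comparison. The labels do not say whether libraries of a group were separate cultures, so p-values measure the spread between libraries, and that spread may be technical. Whether each line was a single pool of transduced cells is also not stated, so knock-down and line cannot be told apart.

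TNFα is an inflammatory cytokine that binds TNF receptor 1 and recruits adaptor and ubiquitin ligase proteins of the TRAF and cIAP families. The complex activates IκB kinase, which marks IκB proteins for destruction and frees NF-κB dimers to enter the nucleus, where they switch on survival genes, chemokines, antigen-presentation genes and their own inhibitors. In liver cells, inflammatory cytokines also reset the output of secreted proteins, the acute-phase response. MacroH2A proteins are variants of histone H2A with a large non-histone domain, and they mark broad stretches of chromatin.

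In the main fit, described below, 289 genes were called for TNFα in the knock-down cells (1.79% of the genes tested). Of these, 248 were higher (1.54%) and 41 lower (0.254%). The count depended on the fit. It was 1237 with the replicate number as a block, and 41 in all with only the 2 groups compared. The 289 are therefore the calls of this fit and not a measure of how many genes responded. The genes that rose included the NF-κB targets UBD, BIRC3, PLAU and RELB. Among called genes with an average level of at least 2 log2 CPM, those that fell most were the fibrinogen genes FGA, FGB and FGG and ALB, which encodes albumin. Unless another fit is named, calls are from edgeR's quasi-likelihood test on all 12 libraries, at a Benjamini-Hochberg adjusted p under 0.05 over all genes tested. That fit holds no block for the replicate number, and neither do the fits that leave out 1 library. Changes are given on the log2 scale, most with a standard error (SE). The SE was derived from the test, as the size of the change divided by the square root of the F statistic. Levels are CPM (counts scaled to a library's total after TMM factors), given for libraries 1, 2 and 3 in that order. In bulk RNA, fewer cells of a type and less RNA per cell cannot be told apart, so a rise or fall is that of a transcript's share in the culture.

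The knock-down libraries held 37780825 to 42094144 estimated counts, so 1 count was worth 0.0238 to 0.0273 CPM. Library number moved the profiles more than TNFα did: over the 6 libraries, the first principal component (55.3% of the variance) set both libraries numbered 1 (-74.7 untreated, -41.9 with TNFα) apart from the other four (24.3 to 36.2). The second component (18.8%) separated the 3 untreated libraries (-32.6 to -12.6) from the 3 treated ones (21.4 to 25.4). The spread between libraries of a group was larger in the knock-down line (biological coefficient of variation 26.5%) than in the control line (14.9%). The main fit estimates the spread over both lines together. Both targets stayed low in the knock-down libraries: MACROH2A1 stood at 32.4, 55.5 and 50.7 CPM without and 44.2, 63.5 and 58.8 CPM with TNFα, against 205, 250.4 and 254 and 256, 268 and 279 CPM in control cells. MACROH2A2 stood at 6.01, 4.76 and 4.55 and 4.64, 3.96 and 3.28 CPM, against 58.3, 54.8 and 60.4 and 47.1, 40.97 and 51.1 CPM. Neither target passed the test for TNFα in knock-down cells (0.27 (SE 0.19, adjusted p = 0.793) and -0.36 (SE 0.15, adjusted p = 0.428)). Hepatocyte genes such as ALB, AFP, APOA1, APOB and TTR were expressed in all 6 libraries, as the cell line's label implies. Of 26 markers of other cell types, 21 stayed under 1 CPM in all 6 libraries and the T cell gene CD3E, the B cell gene MS4A1 and the keratinocyte gene KRT14 were at 0. The markers that reached 1 CPM were LYZ (the lysozyme gene), CD68, PECAM1, ACTA2 and HBA1. ACTA2 stood at 26.2 to 32.9 CPM without and 32.7 to 47.2 CPM with TNFα. The summed level of the markers without LYZ, most of it from ACTA2, was 38.6 to 48.6 CPM without TNFα and 45.6 to 56.2 CPM with it.

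UBD, BIRC3, TGM2 and CTSS were chosen as markers of the response with earlier results of these data known, so their values are a description. UBD (chr6:29555515-29559732 in GRCh38) encodes FAT10, a ubiquitin-like protein that sends its targets to the proteasome. It stood at 4.95, 14.6 and 11.4 CPM without TNFα and 239, 318 and 348 CPM with it, from 10.3 ± 4.91 to 301 ± 56.4 CPM (mean ± SD, n = 3). All 3 treated libraries lay above all 3 untreated ones (log2 fold change 4.87, SE 0.43, adjusted p = 3.0e-04). BIRC3 (chr11:102317484-102339403), the ubiquitin ligase cIAP2 of the TNF receptor complex, moved from 8.42, 8.32 and 6.34 to 65.9, 106 and 96.7 CPM (log2 fold change 3.54, SE 0.21, adjusted p = 2.56e-05). Library 1 was the lowest of the treated libraries for both genes, and for UBD also the lowest of the untreated ones. By pair (the untreated and treated library of the same number), UBD rose by 5.58, 4.44 and 4.93 on the log2 scale. BIRC3 rose by 2.96, 3.66 and 3.92. TGM2 (chr20:38127385-38168475) encodes transglutaminase 2, which cross-links proteins, and moved from 5.19, 6.73 and 8.61 to 32.4, 32.2 and 42.1 CPM (log2 fold change 2.38, SE 0.22, adjusted p = 3.32e-04). CTSS (chr1:150730188-150765778) encodes cathepsin S, a lysosomal protease that trims the MHC class II chaperone, and moved from 1.80, 1.21 and 1.93 to 5.07, 9.63 and 10.4 CPM (log2 fold change 2.34, SE 0.28, adjusted p = 0.00137). No untreated library reached the level of any treated library for these 4 genes, and CTSS, like BIRC3, rose least in pair 1.

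**Figure D1:**
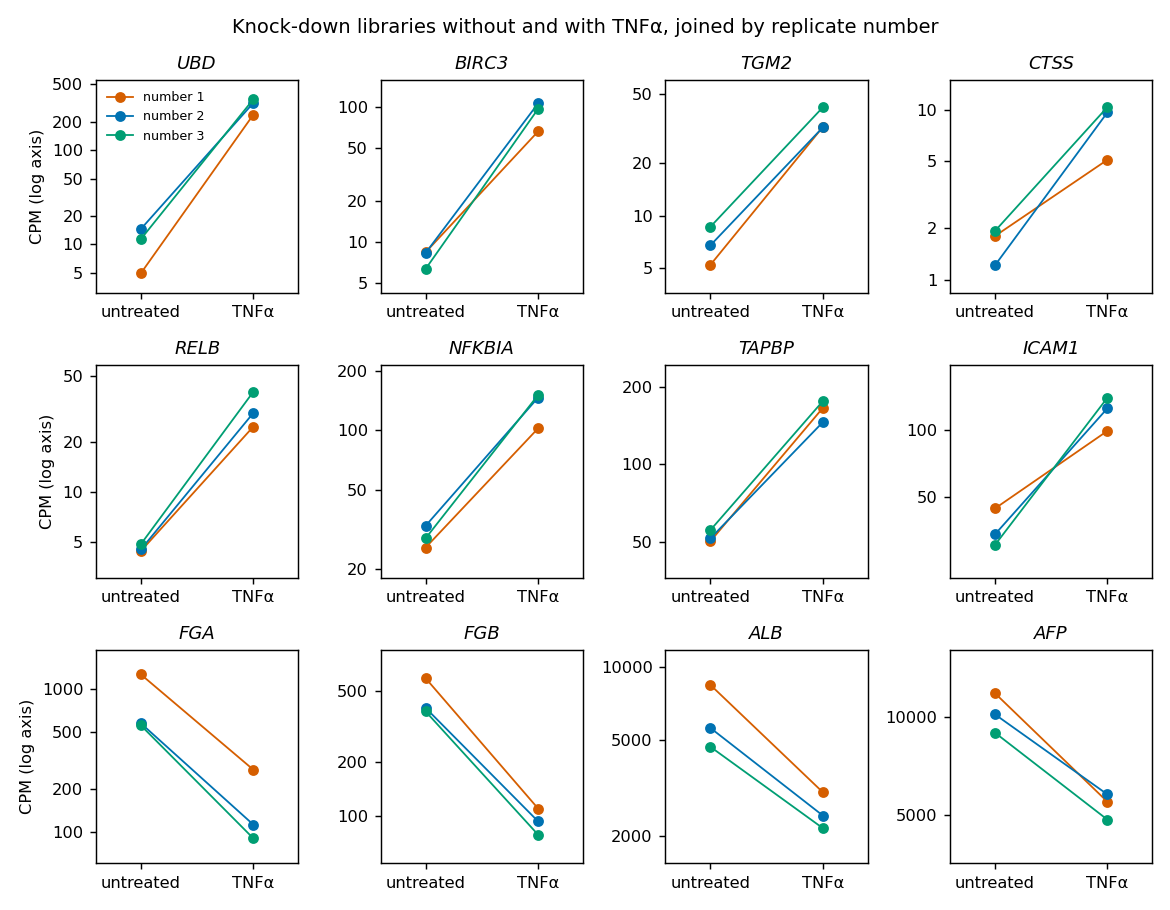
Levels of 12 genes in the 6 knock-down libraries, in CPM on log axes; each line joins the untreated and the TNFα library of the same number. In the upper 8 panels all treated libraries lie above all untreated ones, and in the 4 panels of FGA, FGB, ALB and AFP all lie below.

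Several of the genes that rose carry the κB consensus, the 10-mer bound by NF-κB dimers, in the 250 bases before their RefSeq start (GRCh38.p14). Promoter windows were found by symbol for 194 of the 248 genes called higher, 33 of the 41 called lower and 11245 of all genes tested; RELB, TGM2 and CTSS are not in the table. Among genes with a single window, a match on either strand was present in 32 of 122 genes called higher (26.2%), in 3 of 27 called lower (11.1%) and in 897 of all 8010 tested (11.2%). For genes that rose by at least 1 on the log2 scale it was 21 of 52 (40.4%). Counting every window of a gene, the shares were 30.4% of genes called higher, 12.1% of genes called lower and 15.3% of all tested. A match on both strands at the same bases was counted once per gene. A match is a run of letters, not a measured binding site, and its part in the rises was not tested.

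The windows below show where the letters lie in 5 genes that rose and in FGA, which fell. Each is printed 5′ to 3′ on the gene's own strand and ends at the base before the start, with the matches in capitals.
UBD (chr6:29559733-29559982, minus strand): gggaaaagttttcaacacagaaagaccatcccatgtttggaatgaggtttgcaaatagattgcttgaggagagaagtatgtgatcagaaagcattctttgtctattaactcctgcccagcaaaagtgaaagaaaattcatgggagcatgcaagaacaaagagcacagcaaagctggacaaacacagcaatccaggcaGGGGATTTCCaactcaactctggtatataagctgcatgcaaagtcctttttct
BIRC3 (chr11:102317234-102317483, plus strand): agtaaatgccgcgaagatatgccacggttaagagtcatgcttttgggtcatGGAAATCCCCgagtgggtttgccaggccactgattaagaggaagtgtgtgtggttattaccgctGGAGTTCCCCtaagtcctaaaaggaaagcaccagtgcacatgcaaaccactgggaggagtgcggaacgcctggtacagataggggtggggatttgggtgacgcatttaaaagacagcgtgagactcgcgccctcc
NFKBIA (chr14:35404750-35404999, minus strand): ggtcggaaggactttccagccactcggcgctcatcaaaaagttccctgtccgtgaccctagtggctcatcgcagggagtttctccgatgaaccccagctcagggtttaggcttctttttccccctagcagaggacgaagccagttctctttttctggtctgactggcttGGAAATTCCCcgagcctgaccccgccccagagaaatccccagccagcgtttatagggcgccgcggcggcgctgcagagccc
TAPBP (chr6:33314079-33314328, minus strand): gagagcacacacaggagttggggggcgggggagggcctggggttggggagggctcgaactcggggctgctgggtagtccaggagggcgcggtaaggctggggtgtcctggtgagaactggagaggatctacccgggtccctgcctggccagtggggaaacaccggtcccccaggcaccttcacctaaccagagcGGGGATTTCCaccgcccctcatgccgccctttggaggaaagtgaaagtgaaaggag
IRF1 (chr5:132490774-132491023, minus strand): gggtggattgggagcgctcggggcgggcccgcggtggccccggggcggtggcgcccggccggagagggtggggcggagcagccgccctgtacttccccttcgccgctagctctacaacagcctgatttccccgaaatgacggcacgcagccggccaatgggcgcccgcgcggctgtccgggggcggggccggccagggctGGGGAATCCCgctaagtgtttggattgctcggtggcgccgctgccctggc
FGA (chr4:154590743-154590992, minus strand): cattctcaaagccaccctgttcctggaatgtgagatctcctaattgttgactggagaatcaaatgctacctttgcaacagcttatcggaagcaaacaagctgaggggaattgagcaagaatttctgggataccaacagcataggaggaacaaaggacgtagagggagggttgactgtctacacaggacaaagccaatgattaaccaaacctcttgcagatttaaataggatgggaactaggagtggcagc

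Counted from the start, the match began at -53 in UBD, -56 in TAPBP and -50 in IRF1, and on the opposite strand at -81 in NFKBIA. BIRC3 held 2 matches on the opposite strand, at -199 and -135. UBD and TAPBP shared the same 10 letters, GGGGATTTCC. The FGA window held no match. Neither did the windows of PLAU, ICAM1, FN1, ERAP2 and TLDC2, which rose. The 5 risen genes printed, all with a match, therefore do not stand for all genes that rose.

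Among the 248 genes called higher the median rise was 0.96 on the log2 scale (interquartile range 0.62 to 1.57). The rise was at least 2-fold for 120 of them and at least 4-fold for 33. The 41 genes called lower had a median fall of 0.66 (interquartile range 0.52 to 0.96), with 10 at least 2-fold lower and 4 at least 4-fold lower. The genes that fell include the abundant liver transcripts of albumin, alpha-fetoprotein and fibrinogen. The summed level of the 41 genes went from 32847 ± 4160 to 17440.1 ± 1717 CPM (SD, n = 3). Genes were picked by their calls, so the direction of this sum and of the next was fixed beforehand. The summed level of genes that rose went from 18789 ± 610.2 to 35741 ± 1065 CPM. Of that, FN1 (fibronectin) and C3 (complement C3) together accounted for 6160 CPM without and 13565 CPM with TNFα. Calls were made at every level of expression, 30 higher and 2 lower among the 4030 genes of lowest average level and 90 and 16 among the 4030 of highest, where the median SE was 0.12 against 0.41 in the former.

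**Figure D2:**
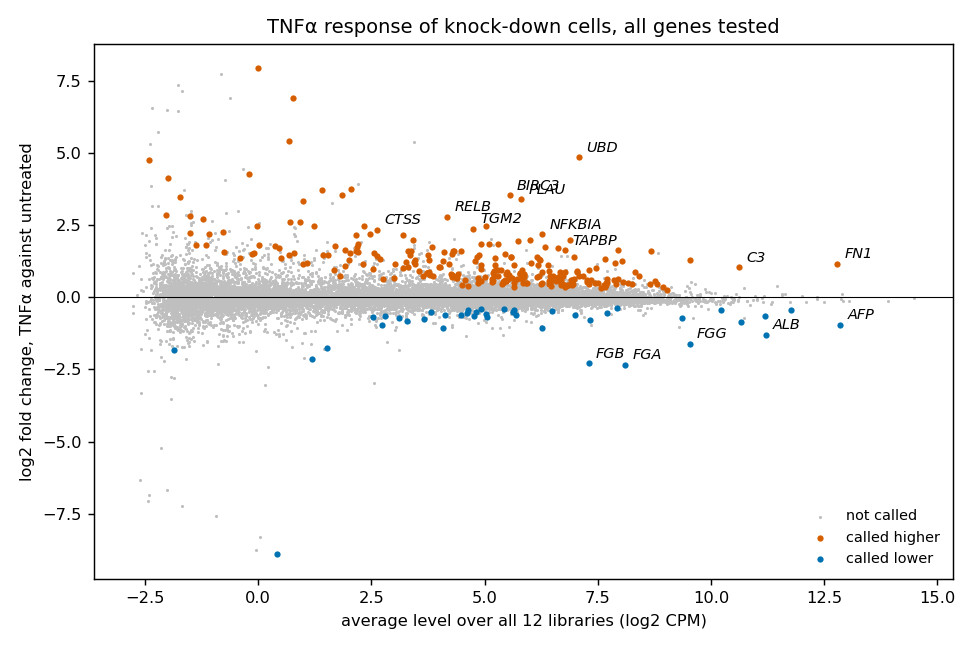
Log2 fold change with TNFα in knock-down cells against the average level of each gene over all 12 libraries (log2 CPM), for the 16118 genes tested; orange points were called higher, blue points lower and grey points not called. The abundant falls of ALB and AFP lie at the right, and the rises of UBD and BIRC3 stand at 4.87 and 3.54 on the vertical axis.

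With the replicate number as a block, the same comparison called 1237 genes (7.67%), 894 higher (5.55%) and 343 lower (2.13%), among them all 289. The share of calls that were higher was then 72.3%, against 85.8% without the block. With DESeq2 638 genes were called, 75.9% of them higher, and with only the 6 knock-down libraries and no block 41. Leaving out 1 library changed the count of 289 by over 1.5 times for knock-down TNFα 2 (150) and 3 (127), knock-down untreated 2 (149) and 3 (150), and control untreated 3 (180). Leaving out knock-down untreated 1 raised the calls lower from 41 to 87. Without both knock-down libraries numbered 1, a choice made after seeing the data, 362 genes were called higher and 104 lower. No gene of the 289 was called in the opposite direction in any of these fits. Libraries of the 2 groups did not overlap for 1133 genes that were higher (7.03%) and 846 that were lower (5.25%). With 3 libraries in each group, such separation also arises with no true change, so it is a description and not a test.

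At the receptor, 3 of 25 genes of the TNF receptor complex and its kinases rose and none fell, with a median log2 change of 0.11 against -0.01 over all genes tested. They were BIRC3 and the adaptors TRAF1 and TRAF2. TRAF1, which pairs with TRAF2 and cIAP proteins, stood at 8.06, 4.88 and 4.84 CPM without and 10.9, 13.96 and 14.4 CPM with TNFα (log2 fold change 1.15, SE 0.24, adjusted p = 0.0346). TRAF2 stood at 16.1, 23.2 and 23.6 and 30.9, 31.3 and 38.2 CPM (log2 fold change 0.67, SE 0.15, adjusted p = 0.0485), and lost its call in each fit that left out 1 library. With the block 7 members rose, adding TRAF3, MAP3K8, IKBKE and BIRC2. The receptor genes themselves gave log2 changes of -0.03 for TNFRSF1A and 0.20 for TNFRSF1B, neither past the test (adjusted p = 0.988 and 0.975).

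Of the 5 NF-κB subunit genes 3 rose, RELB, NFKB2 and NFKB1, and none fell. RELB (chr19:45001464-45038192), the partner of p52, stood at 4.40, 4.49 and 4.84 CPM without and 24.9, 30.1 and 40.4 CPM with TNFα (log2 fold change 2.79, SE 0.22, adjusted p = 1.54e-04). NFKB2, the p100 precursor of p52, went from 28.5, 17.96 and 17.2 to 74.2, 83.2 and 96.7 CPM (log2 fold change 2.00, SE 0.19, adjusted p = 3.42e-04). NFKB1, the p105 precursor of p50, went from 44.7, 58.6 and 60.9 to 77.1, 94.6 and 99.9 CPM (log2 fold change 0.73, SE 0.13, adjusted p = 0.0139). Treated and untreated libraries were apart for each of these 3 genes. RELA, the main activating subunit, gave 0.01 (SE 0.11, adjusted p = 0.993), and REL gave 0.31 (SE 0.09, adjusted p = 0.16), which passed the test with the block (adjusted p = 0.0343).

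Of 16 IκB and feedback genes 5 were called higher and none lower, and all 16 had a positive log2 change (median 0.50). NFKBIA (chr14:35401513-35404749), which encodes IκBα, stood at 25.6, 32.9 and 28.5 CPM without and 102, 146 and 151 CPM with TNFα (log2 fold change 2.20, SE 0.17, adjusted p = 1.54e-04). TNFAIP3, the ubiquitin-editing enzyme A20, went from 79.4, 32.01 and 30.2 to 191, 183 and 181 CPM (log2 fold change 1.97, SE 0.31, adjusted p = 0.00782). Its treated libraries were nearly level, while untreated library 1 stood above the other untreated libraries. NFKBIE, encoding IκBε, rose by 1.5 (SE 0.17), the A20-binding protein gene TNIP1 by 1.31 (SE 0.11) and the atypical IκB gene BCL3 by 0.86 (SE 0.18, adjusted p = 0.0399). With the block CYLD and NFKBIZ were also called. Genes of death receptors and survival proteins moved less: 1 of 22 rose, CFLAR, which encodes the caspase-8 inhibitor cFLIP (177, 141 and 141 CPM without and 214, 219 and 224 CPM with TNFα, log2 fold change 0.52, SE 0.10, adjusted p = 0.0302). The block called 4, adding the BCL2-family survival genes BCL2A1 and BCL2L1 and the death receptor gene TNFRSF21.

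Of the secreted signals, 2 of 8 chemokines and 4 of 13 cytokines tested were called higher (median log2 change 0.51 and 0.99). The chemokine count fell to 0 with library totals alone, with relative log expression size factors and in 10 of the 12 fits without 1 library. CCL20, which draws CCR6-bearing lymphocytes, stood at 5.49, 18.9 and 10.6 CPM without and 34.9, 91.9 and 65.7 CPM with TNFα (log2 fold change 2.46, SE 0.54, adjusted p = 0.0498). CX3CL1, fractalkine, went from 56.9, 87.1 and 85.7 to 129.8, 134 and 154 CPM (log2 fold change 0.86, SE 0.19, adjusted p = 0.0462). Neither call is firm in the fit without a block. Leaving out 1 library there kept the call in 2 of 12 fits for CCL20 and 1 of 12 for CX3CL1. With the block both had small adjusted p (3.17e-06 and 4.87e-04). IL32, an inflammatory cytokine gene, stood at 77.9, 138 and 147 CPM without and 235, 423 and 482 CPM with TNFα (log2 fold change 1.65, SE 0.32, adjusted p = 0.0277). CSF1, the macrophage growth factor, went from 4.97, 10.2 and 7.44 to 14.5, 23.9 and 23.9 CPM (log2 fold change 1.46, SE 0.31, adjusted p = 0.0393). IL32 and CSF1 each kept their call in 4 of 12 fits without 1 library, and the cytokine count was 1 or 2 in 10 of them. The remaining members of these lists above 1 CPM in all treated libraries, CXCL16, CCL5, CCL15, LIF, IL15 and TNFSF14, gave log2 changes of 0.05, -0.09, 0.15, 0.39, 0.20 and 0.99, and none passed the test or the block.

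TNF itself and LTB, lymphotoxin beta, were near the floor before treatment. LTB stood at 0, 0.0476 and 0.0477 CPM without and at 0.4, 0.529 and 1.14 CPM with TNFα (log2 fold change 4.27, SE 0.69, adjusted p = 0.00909). TNF stood at 0.0546, 0.0238 and 0.0477 CPM without and 0.0999, 2.38 and 3.18 CPM with TNFα (log2 fold change 5.40, SE 1.19, adjusted p = 0.0485). Treated library 1 stayed near the untreated level while libraries 2 and 3 rose, and the call held in 1 of 12 fits that left out 1 library. CXCL8, the neutrophil chemokine interleukin-8, rose in every pair but least in pair 1, at 0.082, 0.713 and 0.62 CPM without and 0.624, 31.1 and 28.6 CPM with TNFα. CXCL8 missed the threshold (log2 fold change 5.38, SE 1.39, adjusted p = 0.101), but passed it with the block (adjusted p = 2.68e-04). CXCL8 was singled out after its values were seen.

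Antigen processing rose at several steps. Of 12 genes of the FAT10 and immunoproteasome list 4 rose, and of 16 MHC class I and peptide-loading genes 6, with none lower in either. Proteins are first cut by the proteasome: PSMB9, an inducible catalytic subunit, stood at 1.23, 1.38 and 1.55 CPM without and 3.27, 3.58 and 4.76 CPM with TNFα (log2 fold change 1.48, SE 0.23, adjusted p = 0.0072), and the inducible subunit PSMB8 at 10.98, 15.5 and 17.4 and 21.2, 25.97 and 26.9 CPM (log2 fold change 0.76, SE 0.16, adjusted p = 0.0459). The third inducible subunit, PSMB10, gave 0.29 (SE 0.25, adjusted p = 0.873). The proteasome activator subunit PSME1 rose by 0.44 (SE 0.09, adjusted p = 0.0353), and its partner PSME2, at 0.29, was called with the block alone (adjusted p = 0.0205). The calls of PSMB8 and PSME1 held in 1 and 3 of the 12 fits without 1 library.

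Peptides then cross into the endoplasmic reticulum and are trimmed and loaded. TAP1, a chain of the peptide transporter, went from 27.00, 28.7 and 27.01 to 49.8, 52.3 and 55.4 CPM (log2 fold change 0.93, SE 0.08, adjusted p = 3.0e-04), with libraries of each group close together. Its partner TAP2 gave 0.08 (adjusted p = 0.949). TAPBP (chr6:33299694-33314078), tapasin, which bridges the transporter to class I molecules, stood at 50.1, 51.4 and 55.4 CPM without and 165, 145 and 175 CPM with TNFα (log2 fold change 1.63, SE 0.08, adjusted p = 1.53e-05). The trimming peptidases ERAP1 and ERAP2 rose by 0.82 (SE 0.08) and 1.12 (SE 0.11), and TAPBPL, the tapasin-like editor, by 0.97 (SE 0.15). The class I heavy chain gene HLA-B rose by 1.19 (SE 0.26, adjusted p = 0.0498) and kept its call in 1 of 12 fits without 1 library. Reads of HLA genes can be split between near-identical copies, so its value is uncertain. B2M, the light chain of class I molecules, gave 0.33 (SE 0.08, adjusted p = 0.0759) and passed the threshold with the block (adjusted p = 0.0272).

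Many of these genes lie in the major histocompatibility complex. Between the start of UBD and the end of TAPBP, both called genes that set the bounds (chr6:29555515-33314078), 123 genes were tested, 11 rose and none fell, or 16 and none with the block. Over all genes tested 1.54% were called higher, or 5.55% with the block. UBD and TAPBP are counted in the 11, so part of that count was fixed by the bounds. The 11 were UBD, HLA-J, HLA-K, HLA-B, LTB, TNF, TAP1, PSMB8, PSMB9, COL11A2 and TAPBP, and the median log2 change of the 123 was 0.03. HLA-J and HLA-K are pseudogenes. COL11A2, a collagen gene between the class II genes and TAPBP, stood at 3.74, 1.47 and 1.72 CPM without and 9.36, 6.30 and 9.43 CPM with TNFα (log2 fold change 1.86, SE 0.31, adjusted p = 0.0125).

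In the class II and lysosomal list 3 of 13 genes rose: CTSS, CD74 and LYZ. CD74, the invariant chain that guards the class II groove, went from 175, 138 and 139 to 449, 293 and 341 CPM (log2 fold change 1.26, SE 0.15, adjusted p = 0.00119). LYZ, lysozyme, went from 366, 532 and 465 to 945, 1247 and 1126 CPM (log2 fold change 1.28, SE 0.14, adjusted p = 6.64e-04). LYZ is also in the list of markers of other cell types, and the myeloid markers CD14 and CSF1R and the leukocyte marker PTPRC stayed under 1 CPM in all 6 libraries. CD68, a lysosomal protein gene high in macrophages, stood at 5.71 to 10.4 CPM without and 4.50 to 7.39 CPM with TNFα. The class II regulator CIITA gave 0.07 (adjusted p = 0.982), and the other lysosomal proteases tested, CTSB, CTSC, CTSD, CTSH, CTSL and LGMN, gave -0.03 to 0.30 and were not called; CTSC passed with the block (adjusted p = 0.0103).

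Interferon-stimulated genes rose in part, 6 of 42 tested with a median log2 change of 0.45, and with the block 19 rose and 1, USP18, fell. IRF1, the transcription factor that drives many of them, stood at 13.1, 11.1 and 11.4 CPM without and 25.3, 26.8 and 27.9 CPM with TNFα (log2 fold change 1.17, SE 0.10, adjusted p = 3.0e-04). The exonuclease gene ISG20 went from 3.39, 2.33 and 2.36 to 7.12, 7.54 and 9.14 CPM (log2 fold change 1.56, SE 0.21, adjusted p = 0.00295). The antiviral RNA-sensing enzymes OAS1 and OAS3 rose by 1.03 (SE 0.15) and 0.83 (SE 0.16), the guanylate-binding protein gene GBP3 by 1.72 (SE 0.30) and the RNA sensor gene IFIH1 by 0.78 (SE 0.17). MX1 and OAS2 gave 0.62 and 1.90 and were called with the block alone (adjusted p = 0.00885 and 0.0318), while ISG15 at 0.32 was called by neither. Of 20 cytokine receptor and signalling genes of the IL-6 and interferon families 3 rose. They were both chains of the interferon gamma receptor, IFNGR1 by 0.60 (SE 0.13) and IFNGR2 by 0.74 (SE 0.12), and their kinase JAK1 by 0.50 (SE 0.07).

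Adhesion and matrix genes rose in 7 of 29 cases, with none called lower. PLAU (chr10:73908832-73917494), the urokinase that activates plasminogen, stood at 1.99, 4.28 and 5.34 CPM without and 19.7, 49.6 and 53.4 CPM with TNFα (log2 fold change 3.39, SE 0.41, adjusted p = 0.00167). Library 1 was the lowest in each group, and the change was as large within it as in the others (3.27, 3.52 and 3.31 by pair, log2). FN1, fibronectin, went from 5166, 5288 and 4468 to 10841, 11454 and 11087 CPM (log2 fold change 1.16, SE 0.08, adjusted p = 7.11e-05). ICAM1, the leukocyte adhesion receptor, went from 44.5, 34.1 and 30.6 to 99.2, 125 and 139.8 CPM (log2 fold change 1.74, SE 0.17, adjusted p = 3.94e-04). ITGAV, an integrin chain that binds fibronectin, went from 202, 271 and 229 to 567, 836 and 716 CPM (log2 fold change 1.60, SE 0.18, adjusted p = 0.00108), and the collagen receptor chain ITGA2 rose by 0.89 (SE 0.17) and the laminin chain LAMC1 by 0.47 (SE 0.10). TGM2 is the seventh member. LOX, a collagen cross-linking oxidase, gave -0.88 and was called lower with the block alone (adjusted p = 2.80e-04).

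The autophagy receptors OPTN and SQSTM1 rose, 2 of 21 genes in a list that also held antioxidant genes. OPTN, optineurin, which binds ubiquitin chains, stood at 18.1, 24.9 and 23.4 CPM without and 72.3, 88.8 and 93.1 CPM with TNFα (log2 fold change 1.94, SE 0.15, adjusted p = 1.54e-04). SQSTM1, p62, went from 149.7, 111 and 124 to 222, 310.5 and 356 CPM (log2 fold change 1.21, SE 0.16, adjusted p = 0.00337). SOD2, the mitochondrial superoxide dismutase, gave 0.33 (SE 0.11, adjusted p = 0.257) and was called with the block alone (adjusted p = 0.0378). None of 22 AP-1 and immediate early genes was called (median log2 change 0.31); with the block 6 were, IER5, FOSL2, KLF6, IER3, JUN and DUSP5, all higher, and without both knock-down libraries numbered 1 it was 4.

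**Figure D3:**
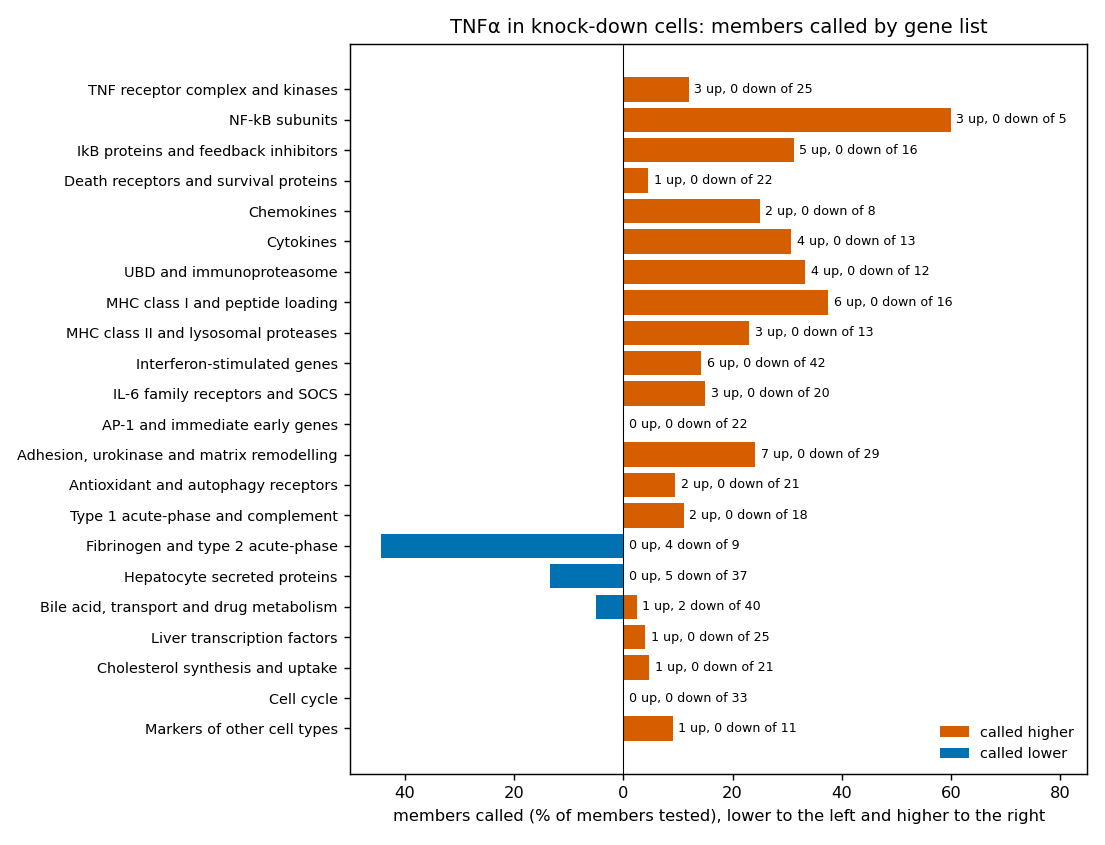
Members called higher (to the right) and lower (to the left) with TNFα in knock-down cells, as a percentage of the members tested in each of 22 gene lists; the text beside each bar gives the counts. NF-κB subunits reach furthest to the right with 3 of 5, and the fibrinogen list furthest to the left with 4 of 9.

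Leaving out 1 library at a time kept the counts of genes called higher within 1.5 times for the NF-κB subunits (2 to 3), the IκB and feedback genes (4 to 7), MHC class I and peptide loading (4 to 7), class II and lysosomal genes (3) and adhesion and matrix genes (5 to 7). For the TNF receptor complex the 3 became 1 without knock-down TNFα 2 or 3, knock-down untreated 2 or 3, control TNFα 2 or any control untreated library. For UBD and the immunoproteasome the 4 became 2 without the same 4 knock-down libraries, any control TNFα library or control untreated 3. The 2 type 1 acute-phase genes became 1 without any library other than the 2 knock-down libraries numbered 1. CFLAR, the 1 survival gene, lost its call in 8 of the 12 fits. The 6 interferon-stimulated genes became 3 without knock-down TNFα 2 or 3 or knock-down untreated 3, and the 3 genes of the IL-6 and interferon receptor list became 1 without knock-down TNFα 2 or 3. Without knock-down untreated 1 the 2 autophagy and antioxidant genes became 4. The 2 bile acid and drug metabolism genes called lower became 4 without knock-down TNFα 1, and 1 without any of the 4 knock-down libraries numbered 2 or 3, control TNFα 3 or control untreated 3. Without those 4 knock-down libraries, left out in turn, no gene of the cholesterol list was called.

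Acute-phase genes were described in 2 lists. In the list of type 1 proteins, a class that interleukin-1 and TNFα induce in hepatocytes, and complement, 2 of 18 rose and none fell, or 2 and 2 with the block. C3 stood at 1188, 1246 and 1124 CPM without and 2637, 2292 and 2384 CPM with TNFα (log2 fold change 1.04, SE 0.12, adjusted p = 0.00108). C1S, a protease of the classical complement pathway, went from 5.74, 10.1 and 10.7 to 15.4, 23.5 and 26.4 CPM (log2 fold change 1.3, SE 0.28, adjusted p = 0.0427) and kept its call in 1 of 12 fits without 1 library. SERPINA3, antichymotrypsin, stood at 120.0, 45.04 and 32.8 CPM without and 113, 208 and 209.8 CPM with TNFα and was not called (1.43 (SE 0.49, adjusted p = 0.265)), also not with the block (adjusted p = 0.145). Untreated library 1 already stood as high as treated library 1, while libraries 2 and 3 rose. SERPINA3 is given here for its values, and its class among acute-phase proteins was not examined.

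In the list of fibrinogen and type 2 acute-phase genes, a class that interleukin-6 induces in hepatocytes, 4 of 9 were called lower and none higher. The median log2 change was -0.73, and 1 of the 9 had a positive change. The count called lower fell to 2 without knock-down TNFα 2 and without knock-down TNFα 3, each of which ended the calls of FGA and HP. The 3 fibrinogen genes lie next to each other on chromosome 4 (FGB chr4:154562980-154572807, FGA chr4:154583126-154590742, FGG chr4:154604136-154612656). FGA stood at 1261, 574 and 554 CPM without and 271, 112 and 89.7 CPM with TNFα (log2 fold change -2.34, SE 0.43, adjusted p = 0.0194). FGB went from 588, 401 and 383 to 109.7, 92.96 and 78.3 CPM (log2 fold change -2.29, SE 0.22, adjusted p = 3.84e-04), and FGG from 2115, 1749 and 1748 to 837, 552 and 455 CPM (log2 fold change -1.61, SE 0.23, adjusted p = 0.00484). Library 1 was the highest of its group for all 3 genes, treated and untreated, and no treated library reached an untreated one. The fourth was HP, haptoglobin, at 10.6, 11.03 and 13.9 CPM without and 7.52, 7.81 and 7.22 CPM with TNFα (log2 fold change -0.65, SE 0.14, adjusted p = 0.0462). Its call held in 1 of 12 fits without 1 library, and reads of HP can be shared with its close copy HPR. A2M gave -0.73 (SE 0.24, adjusted p = 0.228) and was called lower with the block alone (adjusted p = 8.24e-04).

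Of 37 other genes of hepatocyte secreted proteins 5 fell and none rose (median log2 change -0.17), or 11 and none with the block. The 5 became 2 without knock-down TNFα 2 and without knock-down TNFα 3, where AFP and RBP4 kept their calls and ALB, APOA1 and TF lost them, and 3 without knock-down untreated 2. ALB (chr4:73404287-73421482) stood at 8437, 5605 and 4685 CPM without and 3042, 2438 and 2163 CPM with TNFα (log2 fold change -1.29, SE 0.23, adjusted p = 0.016). AFP (chr4:73436221-73456174), the fetal albumin that HepG2 retains, went from 11859, 10204 and 8958 to 5480.4, 5774 and 4826 CPM (log2 fold change -0.95, SE 0.11, adjusted p = 9.95e-04). RBP4, the retinol carrier, went from 279, 229 and 233 to 165, 129 and 136 CPM (log2 fold change -0.79, SE 0.11, adjusted p = 0.00427). APOA1, the main protein of high-density lipoprotein, fell by 0.44 (SE 0.08) and TF, transferrin, by 0.66 (SE 0.14). Not every abundant liver gene moved: APOB gave 0.12 (SE 0.22, adjusted p = 0.974), SERPINA1 0.12 (SE 0.17, adjusted p = 0.96) and TTR -0.30 (SE 0.09, adjusted p = 0.163), and none of these passed with the block.

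Genes of bile acid, transport and drug metabolism went both ways, 1 of 40 higher and 2 lower; the block gave 3 and 6. CYP3A5, a drug-oxidising cytochrome, stood at 5.85, 6.25 and 5.29 CPM without and 14.01, 19.6 and 19.9 CPM with TNFα (log2 fold change 1.62, SE 0.16, adjusted p = 3.84e-04). HNMT, which methylates histamine, went from 163, 133 and 133 to 84.6, 62.3 and 55.9 CPM (log2 fold change -1.08, SE 0.15, adjusted p = 0.00475). SLC51A, a chain of the basolateral bile acid exporter, fell by 0.72 (SE 0.14). NR1H4, the bile acid receptor FXR, gave -0.87 (SE 0.22, adjusted p = 0.0858) and passed with the block (adjusted p = 8.72e-04). Of 25 liver transcription factors 1 rose, GATA6, from 9.10, 9.85 and 10.1 to 25.7, 29.8 and 32.6 CPM (log2 fold change 1.60, SE 0.14, adjusted p = 3.0e-04). In the cholesterol list 1 of 21 rose and none fell, or 1 and 3 with the block, and of 33 cell cycle genes none was called (median -0.15); with the block 1 rose, CDKN1B, and 1 fell, CDC25C.

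Beyond the lists, the genes with the largest rises at an average level of at least 2 log2 CPM included 4 with other functions. SLC6A19, a neutral amino acid transporter, stood at 0.109, 0.832 and 1.03 CPM without and 3.0, 9.66 and 14.6 CPM with TNFα (log2 fold change 3.77, SE 0.79, adjusted p = 0.0384), and PTAFR, the receptor for platelet-activating factor, at 1.31, 1.38 and 1.10 and 2.10, 9.08 and 9.89 CPM (log2 fold change 2.47, SE 0.51, adjusted p = 0.0359). Both kept their call in 2 of 12 fits without 1 library. SPATA21 went from 3.96, 2.40 and 2.19 to 22.4, 7.93 and 8.53 CPM (log2 fold change 2.19, SE 0.40, adjusted p = 0.0195), with library 1 the highest in both groups. SLC22A11, an organic anion transporter, went from 0.792, 0.856 and 1.10 to 3.15, 4.49 and 4.79 CPM (log2 fold change 2.17, SE 0.20, adjusted p = 3.42e-04). Among the largest falls, the guidance cue gene SEMA3A gave -1.07 (SE 0.23, adjusted p = 0.0462), the imprinted gene PEG10 -0.85 (SE 0.14, adjusted p = 0.00896), AVPI1 -0.76 (SE 0.15, adjusted p = 0.0311) and FAM72C -0.81 (SE 0.16, adjusted p = 0.0327). Below that level, SLC25A12, a mitochondrial aspartate and glutamate carrier, gave -2.15 (SE 0.35, adjusted p = 0.00957), ANGPTL1 -1.75 (SE 0.37, adjusted p = 0.0416) and SLC22A25 -1.81 (SE 0.37, adjusted p = 0.0326), and these 3 were chosen after their values were seen. FAM72C has near-identical copies, so its own level is uncertain. Of the 12 fits without 1 library, SEMA3A kept its call in 2, FAM72C in 3, ANGPTL1 in 3 and SLC22A25 in 1.

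All 248 genes called higher rose in each of the 3 pairs of equal number, and all 41 called lower fell in each. The calls came from these same libraries, so this is close to fixed by the choice of genes. Over all 16118 genes tested, 3766 rose in all 3 pairs and 3452 fell in all 3. The median change of the genes called higher was 0.90, 0.93 and 1.05 in pairs 1, 2 and 3, and of those called lower -0.66, -0.69 and -0.70. Pair 1 gave the smallest rise for 122 of the 248 (49.2%) and the largest for 83 (33.5%). Over all genes tested it gave the lowest change for 39.4% and the highest for 40.6%. Some genes changed less in pair 1 than in pairs 2 and 3. By a rule set after seeing the data (at least 1 in both pairs 2 and 3, and lower in pair 1 than in either by at least 1.5, log2), there were 53 such genes, of which 4 were called, or 11 with the block. The same rule with pair 2 or pair 3 as the low one found 11 and 13 genes. Genes that changed more in pair 1 were not counted. In control cells pair 1 was low for 25 genes, 4 of them shared with the 53.

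SERPINA3 changed by -0.08, 2.20 and 2.68 on the log2 scale in pairs 1, 2 and 3 of the knock-down cells and by 3.07, 2.61 and 2.79 in the control pairs. TNF changed by 0.52, 5.04 and 5.05 and 4.92, 6.28 and 5.67. CXCL8 changed by 2.35, 5.35 and 5.42 in knock-down and 5.78, 5.76 and 5.20 in control pairs. Pair 1 was the lowest of the knock-down pairs for all 3 genes, and of the control pairs for TNF. FSTL3, a follistatin-like inhibitor of activin, changed by 0.55, 2.10 and 2.20 in knock-down and 0.88, 1.90 and 1.92 in control pairs. IGFBP1, an insulin-like growth factor carrier, changed by -1.32, 2.04 and 2.17 and 1.37, 2.44 and 2.65. For both genes pair 1 was the lowest in each line, and neither was called (2.02 (SE 0.84, adjusted p = 0.428) and 1.32 (SE 0.66, adjusted p = 0.567)), although FSTL3 passed with the block (adjusted p = 0.00865). ICAM2, an adhesion receptor for leukocyte integrins, rose in all pairs, by 2.23, 3.81 and 4.09 in knock-down and 2.31, 2.38 and 2.67 in control cells, and was called (log2 fold change 3.56, SE 0.35, adjusted p = 3.84e-04). The part of library number 1, which stood apart on the first component, in these values was not tested.

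**Figure D4:**
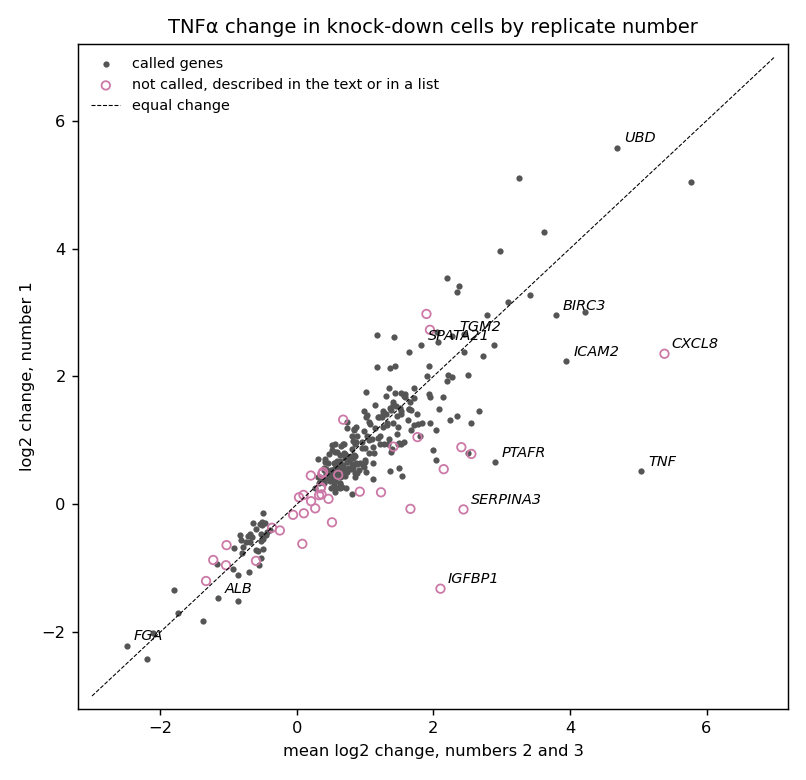
Log2 change with TNFα in pair 1 against the mean of pairs 2 and 3 in knock-down cells, for the called genes (grey) and for further genes described in the text or singled out in a list (open circles); 1 called gene, ENSG00000259086, lies outside the axes. Most called genes follow the dashed line of equal change, while CXCL8, TNF, SERPINA3 and IGFBP1 lie below it.

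The same treatment of control cells called 423 genes (2.62%), 306 higher (1.9%) and 117 lower (0.726%), and 2037 with the block. Leaving out 1 library moved the 423 to between 149 (without control untreated 3) and 709 (without knock-down untreated 1), and control untreated 1 (206) and 2 (213) and control TNFα 2 (172) and 3 (193) each moved it by over 1.5 times. Of the 248 genes called higher in knock-down cells, 191 were called higher in control cells, which is 77.0% of the first list and 62.4% of the second. Of the 41 called lower, 26 were called lower in control cells, 63.4% and 22.2% of the 2 lists. All 289 had the same sign in control cells. Their median change was 0.96 in knock-down and 0.86 in control cells for the genes called higher, and -0.66 and -0.69 for those called lower. Picking genes by their knock-down call tilts this towards the knock-down line, and the larger rise was in control cells for 97 of the 248.

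The difference between the lines was tested as an interaction, the TNFα change in knock-down minus that in control cells. None of the 16118 genes passed (0%) in edgeR's test, with 184 at an unadjusted p under 0.05 (1.14%) and a smallest adjusted p of 0.821. With the block it was also 0 (556 unadjusted), and DESeq2 called 5. Among the 289 genes, 22 had an unadjusted p under 0.05 (7.61%). These genes were picked by their knock-down change, which is part of the interaction. A share above that of all genes can follow from this choice alone. In control cells FGB stood at 39.8, 64.5 and 55.6 CPM without and 21.6, 28.4 and 21.8 CPM with TNFα, a log2 change of -1.15 against -2.29 in knock-down cells (interaction -1.13, SE 0.30, unadjusted p = 0.00343). HP changed by -1.37 in control and -0.65 in knock-down cells (interaction 0.71, SE 0.20, unadjusted p = 0.00511). OPTN and SQSTM1 changed by 2.49 and 1.86 in control cells, with interactions of -0.55 (SE 0.21) and -0.65 (SE 0.23), with unadjusted p = 0.0235 and 0.0157. None of these 4 genes passed after adjustment over all genes. The 4 are examples from the 22 and not those with the smallest p. NRCAM and PHLPP1, for example, had a smaller unadjusted interaction p (0.00446 and 0.00987) than OPTN and SQSTM1.

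**Figure D5:**
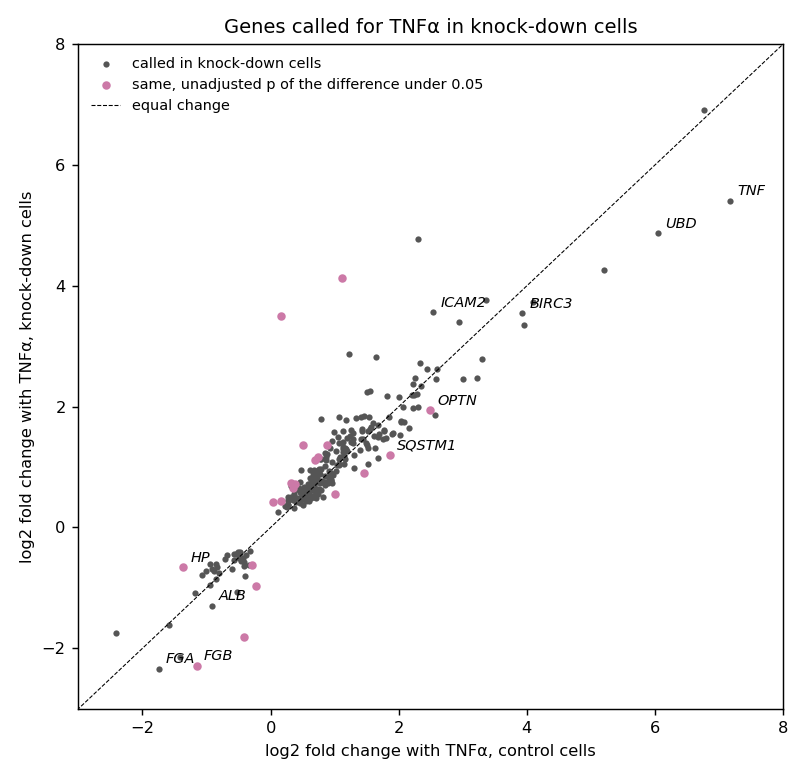
Log2 fold change with TNFα in knock-down cells against that in control cells for genes called in knock-down cells (2 genes with a group at 0 counts are outside the axes); pink points had an unadjusted interaction p under 0.05. All points have the same sign in both lines, and FGB, HP, OPTN and SQSTM1 are among the pink ones.

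Of the 5 genes that DESeq2 called for the interaction, only 2 had also been called for TNFα in knock-down cells, and both had a group at 0 counts. ENSG00000259784 had 0 counts over the untreated and 94 over the treated knock-down libraries, at least 30.7-fold higher against a floor of 3 counts over the group. ENSG00000259086 had 181 and 0, at least 61.5-fold lower. In control cells these genes gave log2 changes of 0.00 and -0.87. The others were CRYAA, a lens crystallin gene, which stood at 4.56, 4.71 and 3.27 CPM without and 6.29, 5.09 and 7.05 CPM with TNFα in knock-down cells and at 0.802, 1.38 and 1.42 and 5.83, 5.55 and 6.43 CPM in control cells, the ribosomal pseudogene RPL37P6, and TBC1D3D, which has near-identical copies. These 5 were named because DESeq2 called them, after their values were seen.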

How the data were processed

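RNA sequencing of 12 HepG2 libraries (3 in each of 4 groups) was used. The authors deposited estimated counts per gene, already whole numbers. The tools named per the submitters' processing notes are Salmon 0.14.0, CASAVA 1.7 and DESeq2, and the build is GRCh38. Annotation and strandedness are not given in these sources, so antisense and overlapping genes cannot be told apart. edgeR 4.0.16 (R 4.3.3) was run with TMM factors, filterByExpr (minimum count 10, minimum total 15), 1 mean for each of 4 groups and 8 residual degrees of freedom. CPM uses these factors, and changes by pair use log2 CPM with a prior count of 2. DESeq2 1.42.0 was an alternative. The test was tested on simulated data.

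Same-numbered libraries deviated together: all 18 correlations across groups were 0.193 to 0.695, and each library correlated best with its own number. The numbers were therefore taken to pair samples in the block fits and in the changes by pair. The main fit does not use this pairing, so a gene it did not call, or a call lost there, can still pass with the block. The check comes from these data, since the labels do not say what a number marks.

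Named genes are the 4 markers, the targets, NF-κB subunits, the 12 largest rises and falls among called genes (average log2 CPM at least 2, groups not overlapping), up to 4 called members per list by p, and chemokines and cytokines above 1 CPM. Other genes named were chosen after their values were seen. Members and lists were chosen with earlier results of these data known. A few genes that met the rule are not reported here. Gene positions and promoters are from RefSeq (GRCh38.p14).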

Additional observations from a re-analysis of the deposited data

How the results depend on the processing

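The count of 289 genes called for TNFα in knock-down cells (248 higher, 41 lower) differed between settings. With the replicate block it was 1237 (894 and 343), with a block within each line 1922 (1255 and 667), with only the 6 knock-down libraries and the replicate block 1087 (745 and 342), with only the 2 groups compared 41 (39 and 2), with DESeq2 638 (484 and 154), without the 4 libraries numbered 1 1360 (913 and 447), and without both knock-down libraries numbered 1, chosen after seeing the data, 466 (362 and 104). Leaving out 1 library gave 127 to 357 in all, 112 to 273 higher and 15 to 87 lower. In control cells the 423 became 2037 with the replicate block, 2983 with a block within each line, 1015 with DESeq2, 2225 without the 4 libraries numbered 1 and 1400 without both knock-down libraries numbered 1, and 149 to 709 without 1 library. For the interaction the 0 became 5 with DESeq2 and 0 to 1 without 1 library. The cause of these differences was not tested. Size factors by relative log expression, library totals alone, no filter on low counts and a stricter filter kept all 3 knock-down counts within 1.5 times, and moved the median of all genes by less than 0.1.

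Of the 104 named genes called, none reversed under any alternative, and the replicate block kept all 104; beyond the calls it added, which are given beside the genes named in the report, it changed no other call. With only the 2 groups compared 72 lost their call, and without knock-down TNFα 3 it was 46. When 1 library is left out, the group left with 2 is assumed to vary like the others. Of 65 called genes that the rule names, 37 kept their call in all 12 such fits and 18 in 4 or fewer. Counts under about 0.0273 CPM cannot be seen in the knock-down libraries, and the 4030 genes of lowest level had a median SE of 0.41, so a change of 2-fold there was often not detectable at this depth.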

Other observations

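Several genes outside the lists rose with TNFα in knock-down cells, and they were picked after their values were seen. TLDC2, a gene of the TLDc-domain family, stood at 3.33, 3.02 and 2.98 CPM without and 13.6, 13.3 and 14.97 CPM with TNFα (log2 fold change 2.17, SE 0.14, adjusted p = 4.05e-05), and libraries of each group lay close together. STAP2, an adaptor protein gene, went from 50.7, 45.6 and 48.9 to 160.1, 141 and 170.1 CPM (log2 fold change 1.7, SE 0.10, adjusted p = 1.86e-05). TIFA, an adaptor that binds TRAF proteins, rose by 1.60 (SE 0.21), the serotonin receptor gene HTR1D by 1.75 (SE 0.22) and the phosphodiesterase gene GDPD5 by 1.84 (SE 0.28). PBXIP1 rose by 1.84 (SE 0.18), COLGALT2, which adds sugars to collagen, by 1.51 (SE 0.14), and PGC, progastricsin, by 1.83 (SE 0.32). All 8 kept their direction in control cells, where the log2 changes were 2.00, 1.68, 1.52, 2.03, 1.85, 1.46, 1.61 and 1.41.

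Genes of immune signalling that are usually low in liver cells also rose, from levels near the floor. ITGAM, the integrin chain CD11b, stood at 0, 0 and 0.0715 CPM without and 1.60, 4.01 and 4.45 CPM with TNFα in knock-down cells and at 0.0243, 0 and 0.048 and 2.63, 3.23 and 3.62 CPM in control cells. NOD2, a sensor of bacterial peptidoglycan, stood at 0.0273, 0.0238 and 0.0238 and 0.549, 0.505 and 0.413 CPM, and at 0.0486, 0.0961 and 0.12 and 0.268, 0.122 and 0.192 CPM in control cells. No fold is given for these 2 genes because the untreated knock-down libraries held 3 counts or fewer in all. The interleukin-18 receptor chain gene IL18R1 rose by 1.47 (SE 0.22, adjusted p = 0.00609), the interferon regulatory factor gene IRF5 by 1.52 (SE 0.27, adjusted p = 0.0155) and the kinase gene JAK3 by 1.60 (SE 0.34, adjusted p = 0.041); JAK3 kept its call in 2 of 12 fits without 1 library. Among further genes that fell were GLUD1, glutamate dehydrogenase, at 980.1, 807 and 805 CPM without and 663, 473 and 439.9 CPM with TNFα (log2 fold change -0.72, SE 0.14, adjusted p = 0.0289), SKP2, a ubiquitin ligase subunit that acts on cell cycle inhibitors (log2 fold change -0.60, SE 0.10, adjusted p = 0.00831), and SCD, a fatty acid desaturase (log2 fold change -0.43, SE 0.09, adjusted p = 0.0467).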
